A study of Mus musculus and Homo sapiens with 20 samples.

Results

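Untreated mouse embryonic fibroblasts (MEF) were compared with untreated HPC-7 cells, a mouse blood progenitor line. The study exposed 3 cell lines, human K562 and mouse MEF and HPC-7, to the HSP90 inhibitor NVP-AUY922, and each line has its own untreated libraries. The samples used here are the 3 libraries labelled as MEF control and the 3 labelled as HPC-7 control, chosen by those labels, which makes 6 of the 20 samples of the series. Their columns in the 2 count tables are headed DMSO, the solvent of the drug, and neither group received the inhibitor. HPC-7 is an established line that was derived from embryonic stem cells carrying the LIM homeobox gene Lhx2 and depends on stem cell factor, the ligand of the receptor KIT. The mouse strain, sex, passage and culture medium of both lines, and whether the fibroblasts were primary or immortalised, are not given in the sources used here. The libraries of a line carry replicate numbers only, so the spread behind each p-value is that of these samples and may be technical. Each line was counted in its own table, and a difference between the lines cannot be told apart from a difference between library batches.

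HSP90 is an abundant chaperone that completes the folding of many kinases, receptors and transcription factors, and its own genes, together with those of HSP70 and the small heat shock proteins, are targets of heat shock factor 1. Which client proteins a cell makes, and how much of each chaperone and co-chaperone it keeps, differs between tissues. Fibroblasts are mesenchymal cells that secrete collagen and other matrix proteins and hold large actin bundles, whereas blood progenitors grow in suspension, answer to cytokines and carry transcription factors such as TAL1, LMO2 and GATA2. The comparison shows the transcripts of these systems that the lines held before any drug was added.

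Total counts ranged from 11628872 to 16859394 in the HPC-7 libraries and from 10542305 to 22872539 in the MEF libraries, and levels below are counts per 1000000 counts (CPM) after TMM scaling of library sizes. They are not corrected for transcript length, so each gene is compared between lines and not with other genes. Replicates of a line correlated over tested genes at Spearman's rho 0.9976 to 0.9982 in HPC-7, and at 0.9977 between MEF replicates 1 and 2. MEF replicate 3 stood apart, with rho 0.9915 and 0.9901 against the other MEF libraries. Of 9363 genes with at least 10 CPM in MEF, 156 were at least 2-fold lower in replicate 3 than in the mean of the other MEF libraries and 0 were 2-fold higher. The lowest was Cenpf, a kinetochore gene, at 178, 146 and 24.8 CPM in MEF replicates 1 to 3. Replicate 3 also held low counts of blood genes: over 105 genes with at least 100 CPM in HPC-7 and under 2% of that level in MEF, its median was 0.606% of the HPC-7 level, against 0.0359% and 0% in replicates 1 and 2. In 99 of those 105 genes replicate 3 was above both other MEF libraries. Whether RNA of another sample contributed to replicate 3 was not tested, and the MEF levels of most blood genes below are given per library for that reason. Without it, 11487 genes differed between the lines, against 11012 with it.

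The marker lists of the labelled cell types were read first. All 12 blood progenitor markers passed the filter on low counts and were higher in HPC-7. Of 13 fibroblast markers, 12 passed, 11 were higher in MEF and 1, Fap, was higher in HPC-7. Of the tested markers, 9 fibroblast and 2 blood progenitor ones had 3 or fewer counts in 1 line. They could pass only through the other line, so their direction follows from passing the filter. In bulk RNA, fewer cells of a type and less RNA per cell cannot be told apart. Ptprc, the pan-leukocyte surface phosphatase CD45, was at 231, 229.5 and 213 CPM in HPC-7 and at 0.150, 0 and 1.398 CPM in MEF. Col1a2, a chain of type I collagen, was at 0.261, 0 and 0.0729 CPM in HPC-7 and at 6056, 6218 and 6316 CPM in MEF. The 3 libraries of each line therefore lay on their own side of both markers. Of 8 skeletal muscle and 8 pluripotency markers 0 passed the filter, of 10 epithelial markers 1 passed (Krt19, a keratin, 0 and 6.58 CPM), and of 9 endothelial markers 2 passed, led by the angiopoietin family receptor Tie1 at 9.06 CPM in HPC-7 and 0 in MEF. Other lists held more: of 8 neural markers 5 passed, 3 higher in MEF and 2 in HPC-7, all at least 4-fold, with summed levels of 41.7 to 49.3 CPM in HPC-7 and 81.97 to 85.6 CPM in MEF. Of 8 macrophage markers 4 passed, 2 toward each line, led by Lyz2, lysozyme, in HPC-7 (27.5, 29.6 and 31.2 CPM) and Cd14 in MEF (11.5, 13.3 and 12.9 CPM). Of 7 cartilage and bone markers 2 passed, with a summed level of 195 to 207 CPM in MEF and under 1 CPM in HPC-7, and of 6 adipocyte markers 1 passed (Pparg, 3.95 ± 0.138 CPM in MEF). Their part in the differences below was not tested.

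Of 12997 genes with enough counts to test, 11012 (84.7%) differed at an adjusted p under 0.05 (edgeR's quasi-likelihood test, with p-values adjusted by Benjamini and Hochberg's method). These calls split into 5907 genes (45.4% of those tested) higher in MEF and 5105 (39.3%) higher in HPC-7. The counts of list members below are to be read beside these shares, and a split near them is no trait of a list. The shares are over tested genes, so a list count is to be set against the number of its genes tested. A difference of at least 4-fold was called for 2451 genes (18.9%) toward MEF and 1284 (9.88%) toward HPC-7. The groups of libraries did not overlap in 86.3% of tested genes, so a bare call is the common state here and the size of a difference says more. The median log2 difference, MEF over HPC-7, was 0.08 over all tested genes and the median absolute difference 0.89. With library size alone as the scaling, this median moved by -0.375 and 39.8% of the calls were higher in MEF, against 53.6% with TMM. Differences below about that size keep a direction only relative to the scaling. For a gene with no read in any library of a line, a level of 3 counts (0.065 CPM in HPC-7, 0.0773 CPM in MEF) stands in, and the fold is a lower bound. Tested genes at or under this floor of 3 counts summed over a line numbered 1277 in HPC-7 and 346 in MEF. Over MEF replicates 1 and 2 alone the number was 486. In any list, a tested gene at or under the floor in 1 line could pass the filter only through the other line. Its direction therefore follows from passing.

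**Figure D1:**
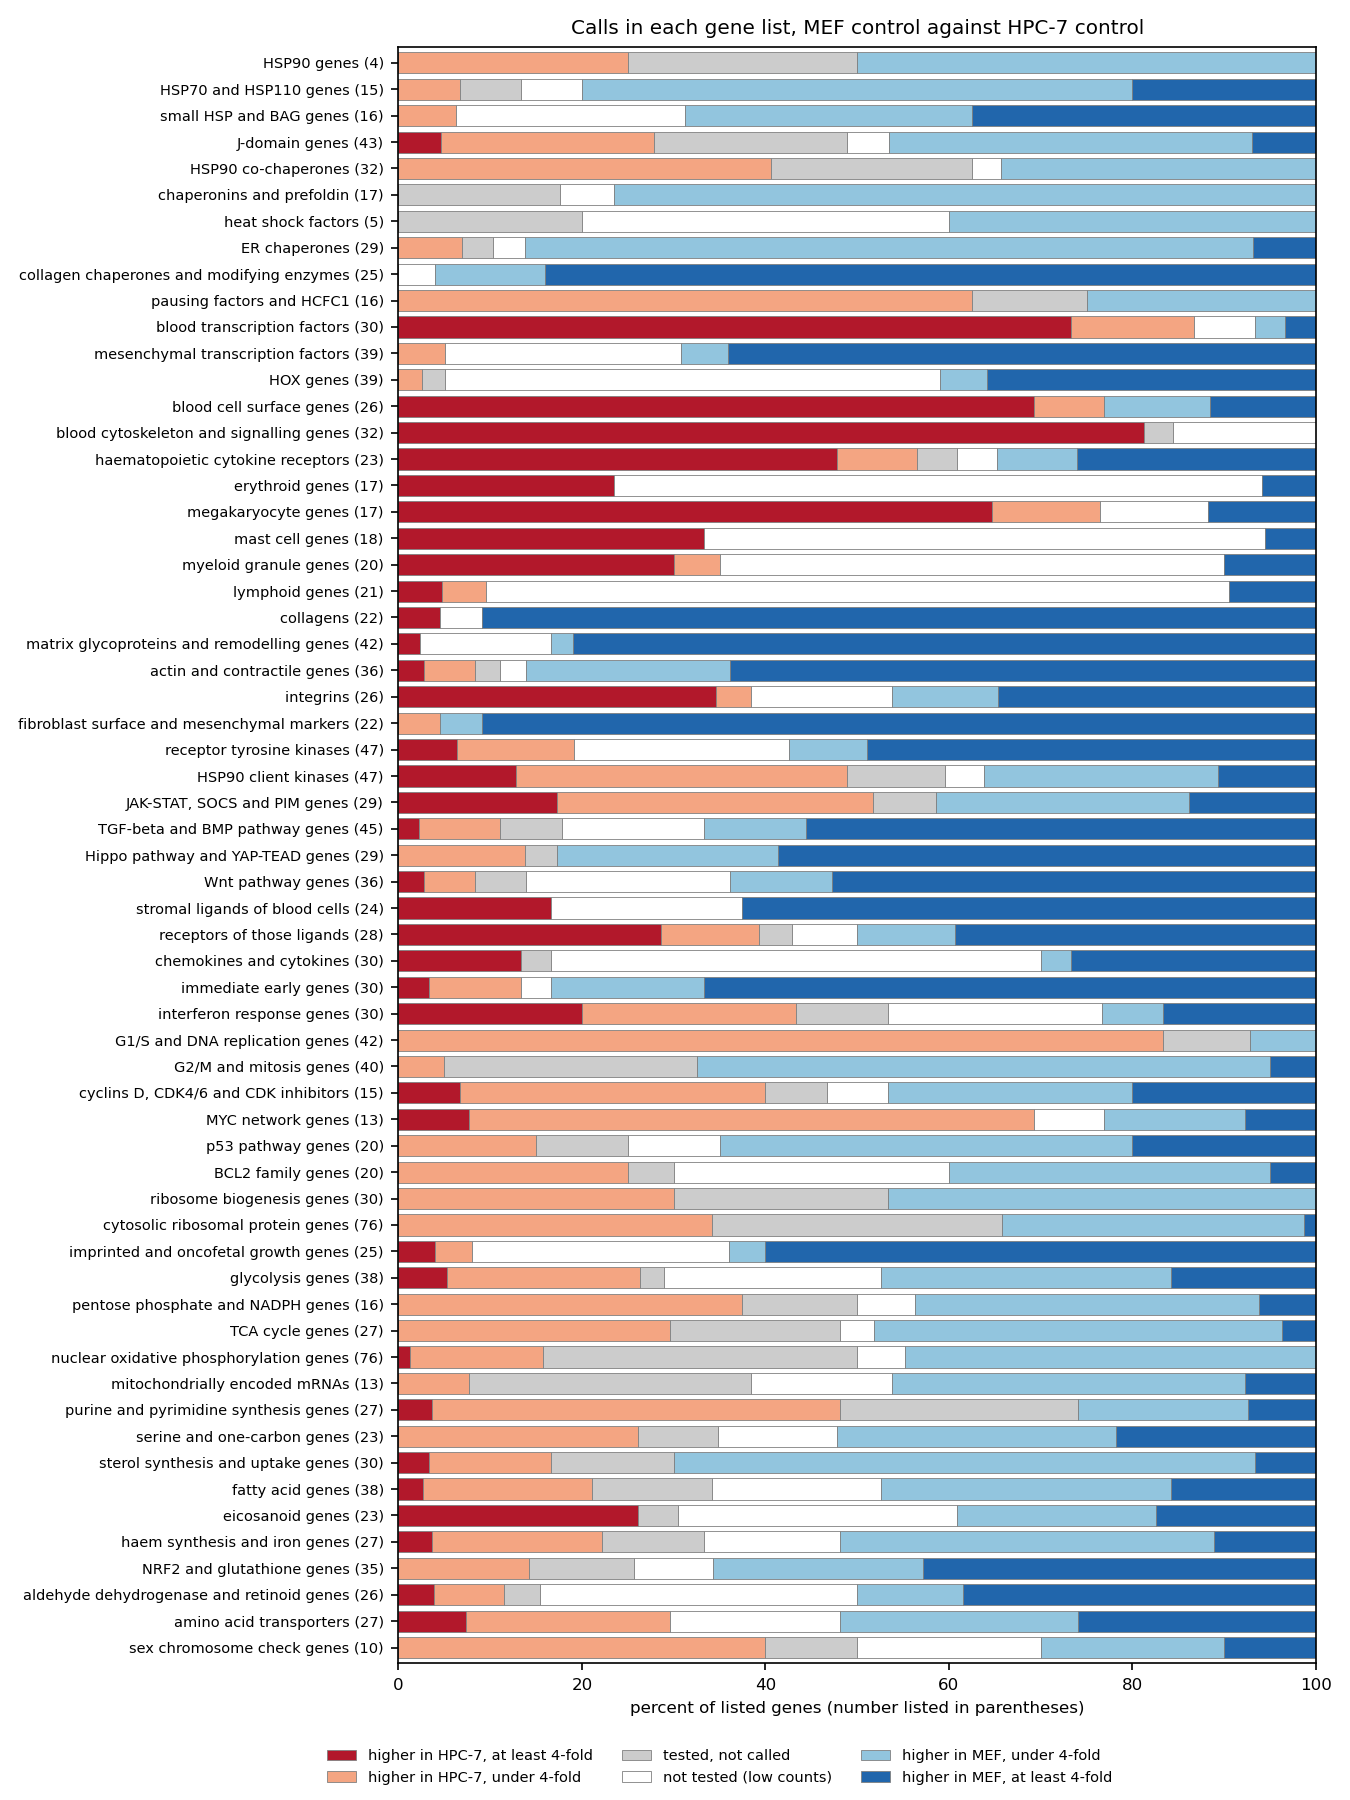
Share of the listed genes (x axis, percent) that were higher in MEF (blue) or HPC-7 (red), with the dark shades for differences of at least 4-fold, grey for tested genes not called and white for genes with too few counts to test. Each bar is 1 gene list, with its number of listed genes in parentheses. Matrix, mesenchymal and collagen-folding lists are mostly dark blue. The lists of blood transcription factors, surface proteins and signalling are mostly dark red, those of erythroid, mast cell, myeloid granule and lymphoid genes mostly white, and chaperonin, ribosome and respiratory chain lists mostly pale.

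HSP90 genes did not move as a block between the lines. Hsp90ab1, the constitutive cytosolic HSP90, was at 2706, 2765 and 2822 CPM in HPC-7 and 3764, 3805 and 4106 CPM in MEF, a log2 difference of 0.49 ± 0.055 (SE; adjusted p = 2.13e-05, edgeR quasi-likelihood). The ranges did not overlap. Of the 4 HSP90 genes, 2 were called higher in MEF and 1 in HPC-7, against 1 and 1 with library size alone. The difference of Hsp90ab1 is close in size to the median shift of -0.375 under that scaling, so its call rests on the scaling. Hsp90b1, the endoplasmic reticulum (ER) form GRP94, was at 386, 356 and 354 CPM in HPC-7 and 1509, 1627 and 1155 CPM in MEF, and differed by 1.97 ± 0.12 on the log2 scale (adjusted p = 2.15e-07, edgeR). All MEF libraries lay above all HPC-7 libraries, with MEF replicate 3 the lowest of its line. Trap1, the mitochondrial form, went the other way, from 171 ± 1.44 CPM (SD, n = 3) in HPC-7 to 128 ± 5.66 CPM in MEF. Hsp90aa1, the stress-inducible cytosolic form, was at 613, 572 and 591 CPM in HPC-7 and 884, 924 and 504 CPM in MEF. Replicate 3 of MEF lay below all HPC-7 libraries and the others above them, so the lines overlapped and the difference of 0.38 ± 0.19 was not called (adjusted p = 0.0874, edgeR). Without that library it was 0.61 with an adjusted p of 2.4e-14 by the same test.

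Of the 15 listed HSP70 and HSP110 genes, 14 passed the filter, 12 were higher in MEF and 1 in HPC-7, with a median log2 difference of 0.82 (0.44 with library size alone). The abundant constitutive members differed modestly. Hspa8, the constitutive cytosolic HSC70, went from 1156 ± 43.4 CPM (SD, n = 3) in HPC-7 to 1799 ± 99.9 in MEF, a log2 difference of 0.64 ± 0.058. Hspa5, the ER chaperone BiP, went from 265 ± 9.74 to 781 ± 44.0 CPM, and Hspa9, the mitochondrial mortalin, from 443 ± 18.1 to 824 ± 38.4 CPM. The HSP110 family members Hsph1, Hspa4 and Hspa4l were higher in MEF by 0.91, 0.51 and 0.80 on the log2 scale, as were the ER members Hyou1 (0.46) and Hspa13 (0.83) and the testis-enriched Hspa2 (0.47). Hspa14, a ribosome-associated member, was the member higher in HPC-7 (log2 difference -0.19, and -0.14 and not called without MEF replicate 2), while Hspa12b (12.6 and 11.6 CPM) was not called. Hspa1l, a germ cell member, did not pass the filter.

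Differences past 4-fold were in the inducible genes Hspa1a and Hspa1b and in Hspa12a. Hspa1b was at 0.627, 0.751 and 0.656 CPM in HPC-7 and 69.1, 62.3 and 68.6 CPM in MEF, a log2 difference of 6.62 ± 0.11. Its neighbour Hspa1a was at 0.209, 0.0751 and 0.0729 CPM in HPC-7, or 6 counts over the 3 libraries, and at 5.88, 4.87 and 4.84 CPM in MEF. Both genes were low in all HPC-7 libraries and higher in all MEF libraries. They encode nearly the same protein, and reads that fit both could be split or dropped by the counting, so the 2 values are uncertain as a division between the genes. Hspa12a, a distant HSP70 relative, had no read in HPC-7 and was at 38.5, 38.6 and 39.8 CPM in MEF, at least 599.9-fold higher.

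The promoters of the inducible genes are shown because heat shock factors bind their heat shock elements. Each line gives the 150 bases before the annotated start, 5′ to 3′ on the gene's strand, from RefSeq on GRCm38.p6, with matches to GAANNTTC, a pair of inverted heat shock element units, in capitals. The stretches are chr17:34959239-34959388 (minus strand, Hspa1b), chr17:34972157-34972306 (minus strand, Hspa1a) and chr5:135887769-135887918 (plus strand, Hspb1).
Hspb1: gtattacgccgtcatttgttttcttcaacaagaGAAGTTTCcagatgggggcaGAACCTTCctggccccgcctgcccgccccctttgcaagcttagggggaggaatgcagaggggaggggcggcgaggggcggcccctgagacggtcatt
Hspa1b: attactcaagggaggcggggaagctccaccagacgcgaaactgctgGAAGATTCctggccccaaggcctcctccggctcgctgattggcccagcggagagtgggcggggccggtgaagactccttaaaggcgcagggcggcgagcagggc
Hspa1a: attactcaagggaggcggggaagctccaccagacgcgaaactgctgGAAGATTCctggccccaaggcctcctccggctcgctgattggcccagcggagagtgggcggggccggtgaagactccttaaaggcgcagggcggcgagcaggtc
The Hspa1a and Hspa1b stretches are identical at 149 of 150 positions, with the match starting 104 bases before the start in both. The Hspb1 stretch holds 2 matches, 117 and 97 bases before the start. The motif equals its own reverse complement, so 1 strand covers both. It occurred within 250 bases before the start in 1833 of 27025 mouse promoters (6.78%), in 2 of 11 HSP70 and HSP110 genes with a RefSeq promoter (18.2%) and in 2 of 13 small HSP and BAG genes (15.4%). It was in 3 of 35 J-domain genes (8.57%) and 3 of 28 HSP90 co-chaperones (10.7%). The 2 HSP70 matches are those of Hspa1a and Hspa1b, whose stretches are nearly identical, so they are not independent. A match describes the letters only and is no measure of factor binding in these cells.

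Small heat shock proteins hold unfolded proteins in a refoldable state, and most of their genes were without a read in HPC-7. Hspb1, encoding HSP25, had no read in any HPC-7 library and was at 89.2, 75.6 and 82.7 CPM in MEF, at least 1269.7-fold higher. Hspb8, the partner of the co-chaperone BAG3, also had no HPC-7 read and was at 101, 103 and 109 CPM in MEF. Cryab, alpha-B crystallin, had none in HPC-7 and 396, 377 and 393 CPM in MEF, at least 5986-fold higher. For all 3 genes, every MEF library was far above a line without a read. Hspb2 showed the same pattern (23.2 ± 1.93 CPM in MEF, SD, n = 3), but its RefSeq span overlaps that of Cryab, and reads of the pair may not be separable. Hspb6 was present in both lines, at 4.44, 5.48 and 5.39 CPM in HPC-7 and 47.7, 48.6 and 46.3 CPM in MEF.

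BAG proteins release nucleotide from HSP70. Bag3, a heat shock factor target, was at 18.5, 18.8 and 19.97 CPM in HPC-7 and 126, 121 and 133 CPM in MEF, a log2 difference of 2.73 ± 0.063. Bag2 was higher in MEF by 0.84 and Bag4 higher in HPC-7 (-1.01) on the log2 scale. The whole list of 16 small HSP and BAG genes had 12 tested members, 11 higher in MEF and 1 in HPC-7, and 8 of the 16 had 3 or fewer counts in HPC-7. Under library size alone the split was 8 against 3. Among the 12 tested, 4 were at or under 3 counts in 1 line and could pass only through the other. Among the 5 heat shock factor genes, Hsf1, the main activator of the heat shock response, was at 56.7, 57.4 and 57.6 CPM in HPC-7 and 106, 101 and 97.7 CPM in MEF (log2 difference 0.83 ± 0.053). Hsf2 differed by 0.67 ± 0.092 in the same direction. Hsbp1, which encodes a binding protein of HSF1, was at 99.3 and 94.3 CPM and was not called, and Hsf4 and Hsf5 did not pass the filter.

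**Figure D2:**
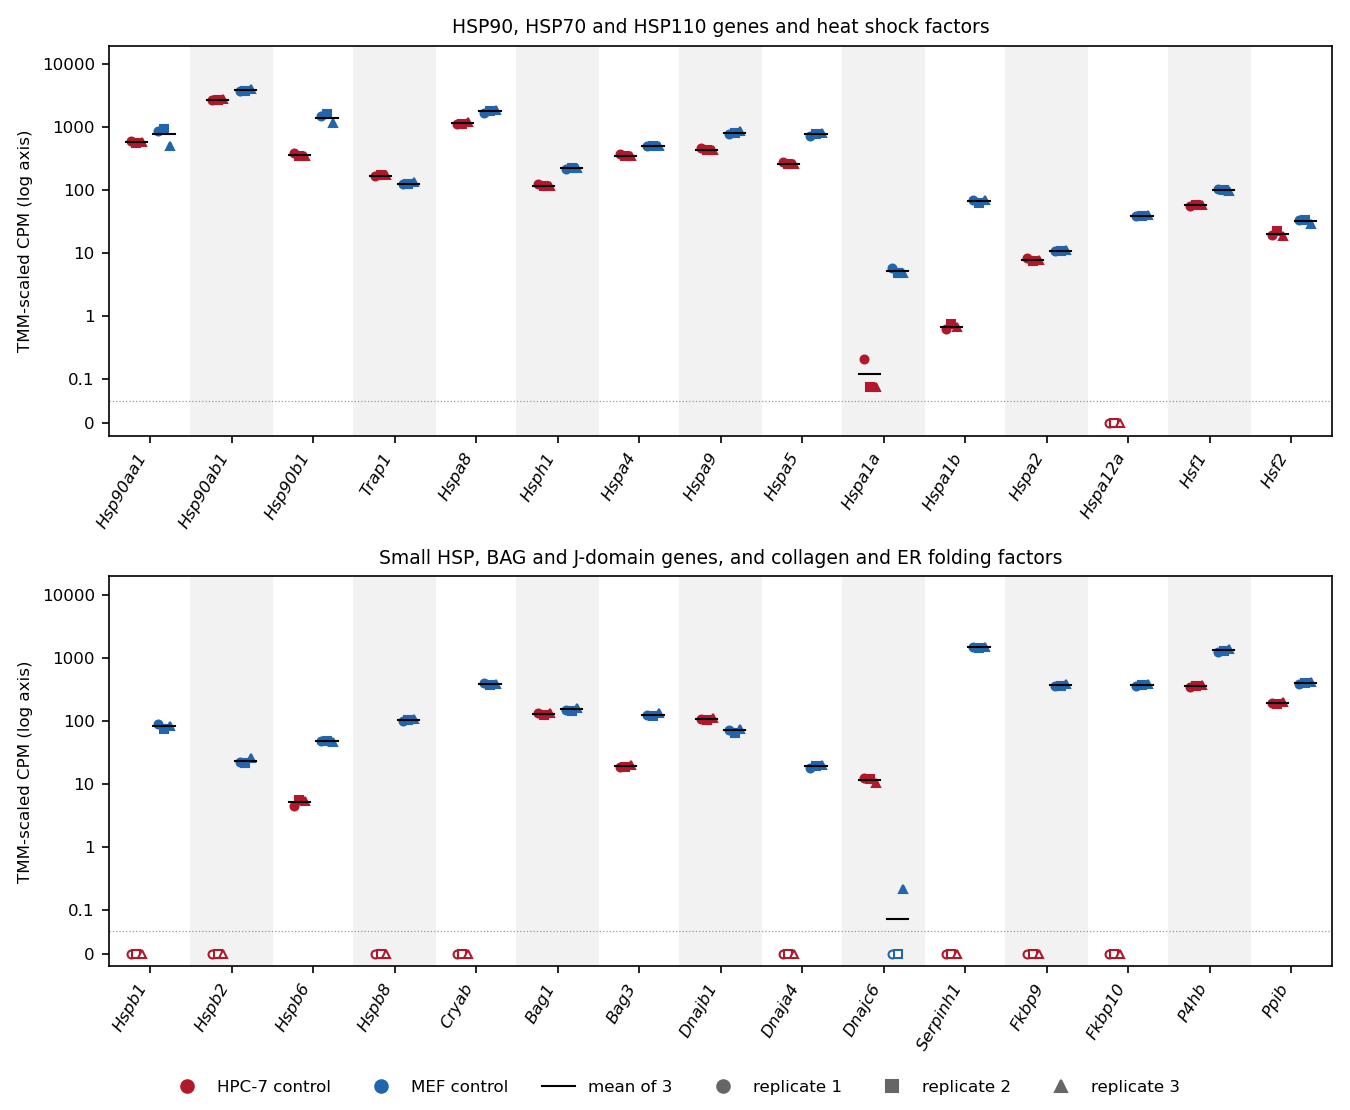
Level of chaperone and heat shock factor genes in each control library (y axis, TMM-scaled CPM on a log axis, with values of 0 drawn as open symbols under the dotted line). Red is HPC-7, blue is MEF, symbols mark replicates 1 to 3, and bars are means of 3. Hspb1, Hspb2, Hspb8, Cryab, Dnaja4, Serpinh1, Fkbp9 and Fkbp10 sit at 0 in all HPC-7 libraries, and Hsp90aa1 shows MEF replicate 3 below the HPC-7 libraries.

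J-domain proteins deliver substrates to HSP70. Of 43 listed, 41 passed the filter, 20 were higher in MEF and 12 in HPC-7, and the median log2 difference of 0.33 changed sign to -0.04 with library size alone. Those highest in MEF relative to HPC-7 were Dnaja4, with no HPC-7 read and 19.02 ± 1.11 CPM (SD, n = 3) in MEF, and Dnajb2, which went from 5.81 ± 0.339 to 35.7 ± 3.59 CPM. Toward HPC-7 stood Dnajc6, the neuronal and clathrin-uncoating auxilin, at 12.4, 12.1 and 10.5 CPM against 0, 0 and 0.215 CPM in MEF, where its reads came from replicate 3. Hscb, the J-domain protein of mitochondrial iron-sulfur cluster transfer, was at 27.0, 28.7 and 28.0 CPM in HPC-7 and 4.29, 5.08 and 4.20 CPM in MEF. Dnajb1, the HSP40 partner of inducible HSP70, was higher in HPC-7 (108 ± 3.53 against 71.0 ± 5.48 CPM), opposite to Hspa1b.

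HSP90 co-chaperones were split in direction. Of 32 listed, 31 passed, 11 were higher in MEF and 13 in HPC-7, where 45.4% and 39.3% of all tested genes were. None reached 4-fold in either direction. Under library size alone the split was 8 and 21. Higher in MEF were Stip1, the HOP adaptor between HSP70 and HSP90, from 236 ± 4.83 to 450.1 ± 11.1 CPM, the ubiquitin ligase gene Stub1 (log2 difference 1.13) and the myosin chaperone Unc45a (0.94). Higher in HPC-7 were Tsc1, the tuberous sclerosis complex subunit that slows the HSP90 cycle, from 116 ± 5.14 CPM in HPC-7 to 49.2 ± 3.12 in MEF, its partners in that role Fnip1 (-0.98) and Fnip2 (-1.03), and the immunophilin Fkbp8 (-0.77). Cacybp was at 157 and 154 CPM and not called, and its difference of -0.03 became 0.17 without MEF replicate 3.

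Chaperonins and prefoldin, whose cytosolic members fold actin and tubulin, were higher in MEF in 13 of 17 listed genes and in HPC-7 in 0, with 16 tested. The median log2 difference was 0.59, and 3 members turned to HPC-7 with library size alone. Cct2 went from 448 ± 7.12 CPM in HPC-7 to 861 ± 43.6 in MEF and Pfdn1 from 35.5 ± 1.58 to 94.2 ± 6.97 CPM. ER chaperones showed a like tilt: of 29 listed and 28 tested, 25 were higher in MEF and 2 in HPC-7, with a median of 0.86. P4hb, protein disulfide isomerase and a subunit of collagen prolyl hydroxylase, was at 350.2, 354 and 380.1 CPM in HPC-7 and 1259.5, 1319 and 1417 CPM in MEF. Uggt2, a glycoprotein folding sensor, went from 0.916 ± 0.362 CPM in HPC-7 to 34.4 ± 8.75 in MEF. Dnajb9 and Ero1lb, a BiP cofactor and an oxidase, were the ER members higher in HPC-7 (log2 differences -0.87 and -1.62).

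Chaperones and enzymes dedicated to procollagen were far higher in MEF. All 24 tested of the 25 listed were called higher in MEF, 21 of them at least 4-fold, but 11 of the 25 had 3 or fewer counts in HPC-7, so those could pass the filter only through MEF. Serpinh1, the collagen chaperone HSP47 and a classical heat shock gene, had no read in HPC-7 and was at 1489, 1470.2 and 1526 CPM in MEF, at least 23007-fold higher. Fkbp10, which aids HSP47 in procollagen folding, had none in HPC-7 and 361, 373 and 385 CPM in MEF. Lox, which cross-links collagen, had none in HPC-7 and 1522, 1714 and 1539.8 CPM in MEF. The members that both lines expressed were the general ones, such as Ppib, cyclophilin B (192 ± 5.73 CPM in HPC-7, 399.6 ± 9.97 in MEF), Colgalt1 (161 and 206 CPM, a difference of 0.35 that turned to -0.03 with library size alone) and Plod3 (43.9 and 223 CPM).

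Genes of promoter-proximal pausing and of the transcriptional coregulator HCFC1, which the study's drug experiments bear on, were more often higher in HPC-7. Of 16 listed, all passed, 10 were higher in HPC-7 and 4 in MEF, with a median log2 difference of -0.37 and 0 at 4-fold. With library size alone 14 were higher in HPC-7 and 0 in MEF. Ogt, the O-GlcNAc transferase that modifies and cleaves HCFC1, was at 596, 614 and 560.2 CPM in HPC-7 and 176, 183 and 179 CPM in MEF, the widest gap of the list (log2 difference -1.72 ± 0.053). Hcfc1 itself went from 486 ± 28.4 CPM in HPC-7 to 328 ± 8.10 in MEF. Cdk9 and Ccnt2, kinase and cyclin of the pause-release factor P-TEFb, were higher in HPC-7 (-0.73 and -1.18). The NELF subunit Nelfe was higher in MEF (0.55, and 0.18 and not called with library size alone) and the subunits Nelfa, Nelfb and Nelfcd toward HPC-7 (-0.40, -0.41 and -0.45).

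Blood transcription factors marked HPC-7. Of 30 listed, 28 passed, 26 were higher in HPC-7 and 2 in MEF, with 22 of the 26 at least 4-fold. Of the tested genes, 4 were at or under 3 counts in 1 line and could pass only through the other. Tal1, the basic helix-loop-helix factor of blood stem cells, was at 324, 311 and 317 CPM in HPC-7 and 0.0499, 0 and 3.01 CPM in MEF. Ikzf1, Ikaros, was at 244, 231 and 227 CPM in HPC-7 and 0, 0 and 0.430 in MEF, and Lmo2, the bridging partner of TAL1, at 167, 158 and 159.6 and 0, 0 and 0.968 CPM. In each case the MEF replicate with the highest value was replicate 3. Lhx2, the gene used to make the line, was at 334, 351 and 359 CPM in HPC-7 and 1.15, 2.33 and 2.04 CPM in MEF. Spi1, PU.1 of myeloid cells, was at 45.2, 38.9 and 47.3 CPM in HPC-7 and had 1 count over the MEF libraries.

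Some factors of this list were expressed in every MEF replicate too. Gata2, needed for blood stem and progenitor cells, was at 309, 315 and 323 CPM in HPC-7 and 26.4, 25.4 and 27.8 CPM in MEF. Runx1, needed for the emergence of blood stem cells, was at 116, 123 and 117 and 39.4, 37.6 and 37.1 CPM. MEF replicate 3 was the highest of its line for Gata2 and the lowest for Runx1. Meis1 was at 19.4, 17.9 and 19.3 CPM in MEF against a mean of 211 in HPC-7, and Etv6 at 74.6, 75.4 and 76.0 against 371. The 2 factors higher in MEF were Mecom, the stem cell gene EVI1, which went from 2.93, 2.78 and 3.64 CPM in HPC-7 to 40.8, 45.3 and 35.8 CPM in MEF, and Mitf (log2 difference 1.22).

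Mesenchymal transcription factors were the counterpart in MEF. Of 39 listed, 29 passed, 27 were higher in MEF and 2 in HPC-7, and 27 of the 39 had 3 or fewer HPC-7 counts. Of the tested genes, 17 were at or under 3 counts in 1 line, so their direction follows from passing the filter. Prrx1, a homeobox factor of limb and craniofacial mesenchyme, was at 0.0523, 0 and 0 CPM in HPC-7 and 395, 412 and 358 CPM in MEF, and Twist1 had no HPC-7 read and 77.1, 66.4 and 62.5 CPM in MEF. Foxd1, of stromal precursors, had none in HPC-7 and 97.5 ± 11.8 CPM in MEF. Zeb2, a repressor in epithelial-mesenchymal transition that also acts in blood, ran the other way, at 193, 196 and 180.1 CPM in HPC-7 and 54.7, 60.7 and 37.6 CPM in MEF, while its paralog Zeb1 went from 5.92 ± 0.305 to 84.3 ± 7.01 CPM. The other member higher in HPC-7 was Runx2, a factor of bone formation and of blood (log2 difference -0.28), whose call was lost without MEF replicate 1 (-0.21) or 2 (-0.23). Of 39 HOX genes 18 passed, 9 of them at or under 3 counts in 1 line and so only through the other. Of the 18, 16 were higher in MEF and 1 in HPC-7. The 1 was Hoxd4, at 2.41, 2.48 and 1.82 CPM in HPC-7 and 1.496, 1.38 and 1.72 CPM in MEF, and its call was lost without HPC-7 replicate 1 or 2 or MEF replicate 1 or 2 (-0.48 to -0.51) and by DESeq2 (-0.54). Hoxb9 had no read in HPC-7 and 23.2, 22.4 and 29.0 CPM in MEF. The HOX genes seen in HPC-7 were few, with 24 of the 39 at 0 there.

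**Figure D3:**
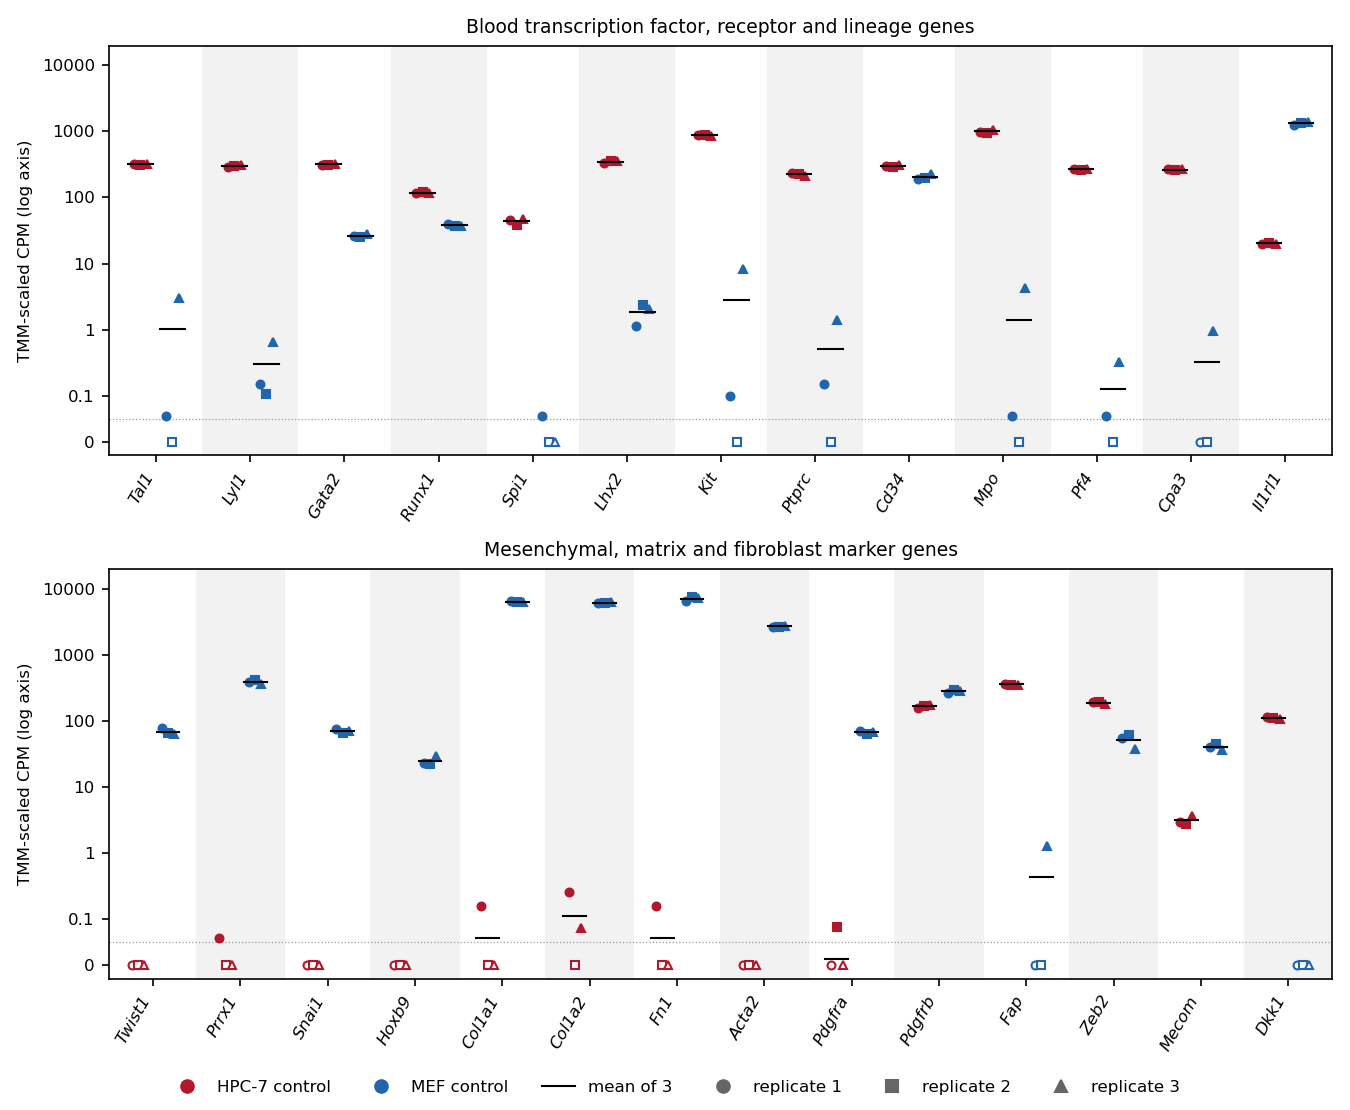
Level of lineage genes in each control library (y axis, TMM-scaled CPM on a log axis, with 0 drawn as open symbols under the dotted line). Red is HPC-7, blue is MEF, and bars are means of 3. MEF replicate 3 (blue triangles) lies above the other MEF libraries for Tal1, Kit and Mpo, all at under 10 CPM. Fap and Dkk1 are high in HPC-7, and Il1rl1 in MEF.

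Surface proteins of blood cells followed the factors, with exceptions. Of 26 listed, all passed, 20 were higher in HPC-7 and 6 in MEF. At or under 3 counts in 1 line were 5 of them, which could pass only through the other line. Kit, the receptor of stem cell factor, was at 873, 889 and 843 CPM in HPC-7 and 0.0997, 0 and 8.28 CPM in MEF. Kitl, its ligand, had no read in HPC-7 and was at 104, 113 and 39.3 CPM in MEF. The receptor and its ligand therefore lay in opposite lines. Cd34, a sialomucin of progenitors, was at 301, 291 and 309.5 CPM in HPC-7 and 188, 198 and 227 CPM in MEF, a log2 difference of only -0.56 ± 0.073. Higher in MEF were Ly6a, the stem cell antigen SCA-1, from 1 count in all of HPC-7 to 57.1, 54.4 and 58.0 CPM, Procr (0.975 ± 0.152 to 23.3 ± 0.321 CPM), Cd9 (24.4 ± 0.867 to 351 ± 14.4 CPM) and Cd63 (139.7 ± 5.48 to 501 ± 35.4 CPM). Of 32 signalling and cytoskeletal genes of blood cells 27 passed, 26 were higher in HPC-7, all at least 4-fold, and 0 in MEF. Among the 27, 1 was at or under 3 counts in 1 line and could pass only through the other. The tested member not called was Arpc1b, an Arp2/3 complex subunit of many cell types (418 and 434 CPM). Vav1, a guanine nucleotide exchange factor, was at 189.6, 186 and 193 CPM in HPC-7 and 0, 0 and 1.08 CPM in MEF, and the GTPase gene Rac2 at 369, 378 and 396 and 0, 0 and 1.08 CPM.

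Lineage programmes within blood were partly present in HPC-7. Of 17 megakaryocyte genes 15 passed and 13 were higher in HPC-7, among them Pf4, platelet factor 4, at 272, 263 and 268 CPM against 0.0499, 0 and 0.323 CPM in MEF, and Itga2b, CD41, at 264, 262 and 281 against 7.98, 7.20 and 10.004 CPM. All HPC-7 libraries held these transcripts at similar levels. Of 20 myeloid granule genes 9 passed and 7 were higher in HPC-7. Mpo, myeloperoxidase, was at 986, 962 and 1055 CPM in HPC-7 and 0.0499, 0 and 4.20 CPM in MEF. Of 18 mast cell genes 7 passed, 6 higher in HPC-7, including Cpa3, mast cell carboxypeptidase, at 267, 259 and 268 against 0, 0 and 0.968 CPM. Of 17 erythroid genes 5 passed and 4 were higher in HPC-7, while 9 of the 17 had no HPC-7 read. Of 21 lymphoid genes 4 passed the filter. At or under 3 counts in 1 line were 4 tested megakaryocyte, 4 myeloid granule, 1 mast cell, 2 erythroid and 3 lymphoid genes. These could pass only through the other line, so their direction follows from passing the filter.

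The promoters of Vav1, Itga2b and Pf4 are shown as blood genes with a match to GAGGAAG, the core bound by PU.1 and other ETS factors. Matches on either strand, here as GAGGAAG or its complement CTTCCTC, are in capitals in the 150 bases before the start, 5′ to 3′ on the gene's strand (RefSeq, GRCm38.p6). The stretches are chr17:57278950-57279099 (plus strand, Vav1), chr11:102469884-102470033 (minus strand, Itga2b) and chr5:90772285-90772434 (plus strand, Pf4).
Vav1: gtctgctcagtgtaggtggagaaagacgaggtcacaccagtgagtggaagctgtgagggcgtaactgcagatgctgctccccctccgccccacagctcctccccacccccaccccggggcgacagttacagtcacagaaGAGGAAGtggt
Itga2b: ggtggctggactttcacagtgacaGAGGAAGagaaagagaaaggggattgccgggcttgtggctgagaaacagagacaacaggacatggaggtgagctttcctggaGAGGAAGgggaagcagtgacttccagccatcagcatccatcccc
Pf4: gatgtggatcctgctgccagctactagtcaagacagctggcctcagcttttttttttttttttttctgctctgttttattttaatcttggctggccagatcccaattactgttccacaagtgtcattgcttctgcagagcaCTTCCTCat
The matches start 11 bases before the start in Vav1, 126 and 44 in Itga2b and 9 in Pf4. Within 250 bases before the start the motif was in 10.4% of the 27025 promoters. It was in 6 of 13 megakaryocyte genes with a RefSeq promoter (46.2%), 8 of 19 blood surface genes (42.1%), 6 of 26 blood cytoskeleton and signalling genes (23.1%) and 1 of 25 blood transcription factors (4%). The lists were drawn up by function and not by these letters, and the shares are a description.

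Several genes went against their list. Fap, fibroblast activation protein (chromosome 2, 62500936 to 62575509 in the GRCm38.p6 annotation of RefSeq), was at 368, 355 and 351 CPM in HPC-7 and 0, 0 and 1.29 CPM in MEF, where all its reads were in replicate 3. Il1rl1, the interleukin-33 receptor ST2 known from mast cells (chromosome 1, 40404864 to 40465418), was at 19.97, 20.6 and 19.97 CPM in HPC-7 and 1255, 1343 and 1406 CPM in MEF, a log2 difference of 6.05 ± 0.070. ST2 is also known as a serum-induced gene of cultured fibroblasts. Pdgfrb, a receptor for platelet-derived growth factor used to mark fibroblasts and pericytes, was at 158, 170.3 and 177 CPM in HPC-7 and 268, 297 and 280.4 CPM in MEF, whereas its paralog Pdgfra had 1 count in HPC-7 and 69.8, 64.0 and 68.5 CPM in MEF. Eng, endoglin, was higher in HPC-7 (118 ± 7.28 against 49.3 ± 1.48 CPM). Ppbp, a platelet chemokine, was higher in MEF (0.318 ± 0.180 and 20.5 ± 1.86 CPM), and Pax6, a neural homeobox gene, was at 42.6, 36.4 and 36.3 CPM in HPC-7 with 1 count in MEF.

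Matrix genes stood far higher in MEF. Of 22 collagens 21 passed, 20 were higher in MEF, all at least 4-fold, and 1 in HPC-7. In HPC-7, 16 of the 22 had 3 or fewer counts, and those 16 could pass only through MEF. Col1a1 was at 0.157, 0 and 0 CPM in HPC-7 and 6529.6, 6408 and 6325 CPM in MEF. Of 42 matrix glycoprotein and remodelling genes 36 passed and 35 were higher in MEF, with 30 of the 42 at 3 or fewer HPC-7 counts, so that 24 of those tested could pass only through MEF. Fn1, fibronectin, was at 0.157, 0 and 0 CPM in HPC-7 and 6510.4, 7415 and 7340.1 CPM in MEF, and Sparc, a collagen-binding matrix protein, had no HPC-7 read and 1710.0, 1681 and 1721 CPM in MEF, at least 26222-fold higher. The matrix genes that both lines held included Ltbp1, which anchors latent TGF-beta (134 ± 1.67 CPM in HPC-7, 979 ± 67.5 in MEF), the laminin gene Lamc1 (84.5 ± 3.34 and 395 ± 19.3 CPM) and Emilin1 (128 ± 10.2 and 325 ± 6.76 CPM).

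Actin and contractile genes differed by isoform. Of 36 listed, 35 passed, 31 were higher in MEF and 3 in HPC-7. Among the 35, 9 were at or under 3 counts in 1 line and could pass only through the other. Acta2, smooth muscle actin, had no read in HPC-7 and was at 2679, 2662 and 2769.7 CPM in MEF. Actb, the cytoplasmic beta-actin that every cell makes, went from 1071 ± 116 CPM in HPC-7 to 2576 ± 269 in MEF, and Actg1 from 511 ± 42.4 to 2423 ± 89.3 CPM. Among tropomyosins Tpm2 had no HPC-7 read and 428 ± 16.8 CPM in MEF, while Tpm3 went from 269 ± 4.14 to 452 ± 26.3 CPM. Higher in HPC-7 were Csrp1, a LIM protein of smooth muscle (172 ± 7.83 against 39.8 ± 3.08 CPM), Fhl1 (-0.54 on the log2 scale) and Tagln2 (-0.26). Integrins, the receptors that link matrix to actin, were exchanged between the lines: of 26 listed and 22 tested, 12 were higher in MEF and 10 in HPC-7. Among the 22, 6 were at or under 3 counts in 1 line and could pass only through the other. Itgal, of the leukocyte integrin LFA-1, was at 283, 292 and 277 CPM in HPC-7 and 0, 0 and 0.753 CPM in MEF, and Itga4 at 108, 103 and 101 and 0.698, 0.847 and 1.29 CPM. Itga3 and Itga11, receptors for laminin and collagen, had no HPC-7 read and were at 91.5 ± 1.10 and 40.4 ± 3.77 CPM in MEF.

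Receptor tyrosine kinases, many of them HSP90 clients, were more often higher in MEF. Of 47 listed, 36 passed, 27 were higher in MEF and 9 in HPC-7, and 21 had 3 or fewer counts in HPC-7. Of the tested genes, 15 were at or under 3 counts in 1 line and could pass only through the other. Egfr, the epidermal growth factor receptor, had no read in HPC-7 and 132, 135 and 121 CPM in MEF, and Met, the hepatocyte growth factor receptor, none in HPC-7 and 115, 122 and 116 CPM in MEF. Erbb2 was likewise without an HPC-7 read, at 79.9, 76.7 and 76.2 CPM in MEF. Fgfr1 went from 2.72 ± 0.669 CPM in HPC-7 to 789 ± 28.1 in MEF and Axl from 2.93 ± 0.630 to 843 ± 6.80 CPM. Toward HPC-7, besides Kit, stood the ephrin receptor genes Epha7 (16.8 ± 1.24 against 6.35 ± 1.87 CPM) and Ephb2 (24.8 ± 2.39 against 11.8 ± 1.21 CPM). Igf1r and Insr, the receptors of insulin-like growth factor and insulin, were closer, with log2 differences of -0.18 and -0.70, and Igf1r was not called without MEF replicate 1 (-0.17) or 2 (-0.13).

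Among 47 other client kinases 45 passed, 17 were higher in MEF and 23 in HPC-7, where 45.4% and 39.3% of all tested genes were, and the split was 12 and 31 with library size alone. Btk, the Bruton kinase of blood cells, was at 252, 256 and 245 CPM in HPC-7 and 0, 0 and 1.83 CPM in MEF. Syk and Lyn, which signal from immune receptors, went from 327 ± 13.1 and 75.6 ± 2.53 CPM in HPC-7 to 63.5, 65.7 and 68.0 and to 12.6, 14.9 and 13.3 in MEF. Toward MEF, the adhesion kinase genes Ptk2 (14.1 ± 1.17 to 188 ± 4.93 CPM) and Src (13.5 ± 0.229 to 111 ± 9.66 CPM) were higher. The Src-family kinase gene Yes1 had 1 count in HPC-7 and 31.1 ± 10.6 CPM in MEF. Abl2 and Ripk1 were not called, at 109 and 107, and 47.6 and 49.2 CPM in HPC-7 and MEF.

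JAK-STAT genes were divided between the lines. Of 29 listed, all passed, 15 were higher in HPC-7 and 12 in MEF, where 39.3% and 45.4% of all tested genes were. Jak3, the kinase of common gamma chain receptors, was at 336, 364 and 364 CPM in HPC-7 and 20.7, 21.2 and 23.6 CPM in MEF. Stat5a, a factor downstream of cytokine receptors, was at 187, 196 and 192 and 25.8, 28.1 and 26.1 CPM, and Stat5b fell by a log2 difference of 2.06 from HPC-7 to MEF. Pim1, a STAT5 target kinase, was at 42.6 ± 1.92 CPM in HPC-7 and 13.8 ± 1.33 in MEF. Stat3 and Stat6 ran toward MEF (0.57 and 2.13). The feedback inhibitors Socs1, Socs2 and Socs3 were higher in MEF in every library: Socs3 was at 2.20, 1.80 and 2.19 CPM in HPC-7 and 24.0, 21.4 and 24.5 CPM in MEF, Socs2 at 1.71 ± 0.193 and 18.1 ± 0.468 CPM and Socs1 at 0.467 ± 0.088 and 13.6 ± 2.38 CPM. Socs4 and Socs7 were higher in HPC-7 (-0.50 and -0.49). Of 23 cytokine receptor genes 22 passed, 13 were higher in HPC-7 and 8 in MEF. Among the 22, 6 were at or under 3 counts in 1 line and could pass only through the other. Il6st, the shared receptor gp130, was at 21.1, 18.2 and 17.2 CPM in HPC-7 and 923, 974 and 1018 CPM in MEF.

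Of 24 listed ligands that act on blood cells 19 passed, 15 were higher in MEF and 4 in HPC-7. In HPC-7, 16 of the 24 had 3 or fewer counts, and 11 of the tested genes were at or under that floor in 1 line, so their direction follows from passing the filter. Cxcl12, the chemokine that retains blood stem cells in marrow, had no read in HPC-7 and was at 444, 418 and 447 CPM in MEF, while its receptor gene Cxcr4 was at 85.3, 86.4 and 81.0 CPM in HPC-7 and 0, 0 and 0.108 CPM in MEF. Csf1, the macrophage growth factor, was at 0.777 ± 0.174 CPM in HPC-7 and 387 ± 4.93 in MEF. For CXCL12 the ligand and its receptor lay in opposite lines, but as a list the 28 receptors of these ligands did not: 26 passed, 14 were higher in MEF and 11 in HPC-7. Among the 26, 7 were at or under 3 counts in 1 line and could pass only through the other. The 4 ligands higher in HPC-7 were Tgfb1 (387, 415 and 443 CPM against 14.8, 15.0 and 16.6 CPM in MEF), Angpt1 (469 ± 11.2 against 25.4, 27.0 and 10.8 CPM), Flt3l (21.8 ± 1.97 against 3.22 ± 0.380 CPM) and Il6 (13.9 ± 1.92 against 0.640 ± 0.105 CPM). Angpt1, which encodes the TIE2 ligand of marrow niches, was thus far higher in the progenitor line.

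Of 45 TGF-beta and BMP genes 38 passed, 30 were higher in MEF and 5 in HPC-7, and 16 of the tested genes were at or under 3 counts in 1 line and could pass only through the other. Smad5, a mediator of BMP signals present in most cells, was at 105 and 112 CPM and was not called. The ligand isoforms were exchanged, with Tgfb1 in HPC-7 and Tgfb3 (0.0486 ± 0.084 CPM in HPC-7, 131 ± 3.32 in MEF) in MEF. The target genes Id1 (5.24 ± 0.490 to 126 ± 9.09 CPM) and Id3 (2 counts to 253 ± 14.9 CPM) were higher in MEF. Of 36 Wnt genes 28 passed, 23 were higher in MEF and 3 in HPC-7, with 13 of the tested genes at or under 3 counts in 1 line. Dkk1, a secreted Wnt inhibitor, was at 117, 109.8 and 108 CPM in HPC-7 and had no read in MEF, at least 1443-fold lower there, and the related Dkk3 had none in HPC-7 and 111 ± 5.38 CPM in MEF.

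The Hippo pathway differed at its end and less at its start. Of 29 listed, all passed, 24 were higher in MEF and 4 in HPC-7. In HPC-7, 13 had 3 or fewer counts, and those 13 could pass only through MEF. Yap1, the coactivator that the pathway restrains, had no read in HPC-7 and was at 191, 197 and 200.0 CPM in MEF. Its paralog Wwtr1, TAZ, had 1 count in HPC-7 and 237, 251 and 249.6 CPM in MEF, and its DNA-binding partner Tead1 had none and 359, 368 and 359.6 CPM. The targets Ctgf and Cyr61 had no HPC-7 read and were at 303 ± 6.71 and 534 ± 1.79 CPM in MEF. Each of these genes was at or near 0 in all HPC-7 libraries. The upstream kinase genes were present in both lines: Stk4, MST1, was higher in HPC-7 (196 ± 3.16 against 61.5 ± 2.42 CPM), Stk3, MST2, higher in MEF (26.6 ± 2.94 and 47.7 ± 15.1 CPM), and Lats1 higher in MEF (58.6 ± 4.32 and 148 ± 7.48 CPM).

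The Cyr61 promoter is shown as that of a textbook YAP-TEAD target. It is given as the 150 bases before the start at chr3:145649986-145650135 (minus strand; RefSeq names the gene Ccn1, GRCm38.p6), with the match to GGAATG, here as its complement CATTCC, in capitals.
Cyr61: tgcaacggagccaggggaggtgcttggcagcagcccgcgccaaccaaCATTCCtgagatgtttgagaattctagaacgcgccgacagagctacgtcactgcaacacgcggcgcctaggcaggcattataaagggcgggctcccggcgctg
The match starts 103 bases before the start. Within 250 bases the motif, on either strand, was in 12.6% of the 27025 promoters, in 13 of 24 Hippo pathway and YAP-TEAD genes (54.2%), in 8 of 30 actin and contractile genes (26.7%) and in 2 of 18 collagens (11.1%).

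Immediate early genes, which growth factors and stress switch on within minutes, were higher in MEF in 25 of 30 and in HPC-7 in 4, with 29 tested. Fosl1 went from 0.306 ± 0.177 CPM in HPC-7 to 94.9 ± 7.96 in MEF, Klf4 from 0.0599 ± 0.054 to 134 ± 3.78 CPM and Jun from 21.4 ± 0.844 to 136 ± 3.66 CPM. Higher in HPC-7 were Dusp4 and Dusp6, phosphatases of the ERK pathway (-2.29 and -0.79), Ier2 (-1.65) and Myc (-1.23).

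Members of growth control gene families differed in level between the lines, and not all in the same direction. Ccnd1, cyclin D1, was at 59.7, 56.2 and 55.8 CPM in HPC-7 and 588, 581 and 652 CPM in MEF. Ccnd2 ran the same way (138 ± 12.8 to 369 ± 25.4 CPM), and Ccnd3 the other way (207 ± 6.06 to 126 ± 7.59 CPM). Cdk6 was at 123, 135 and 129 CPM in HPC-7 and 17.9, 16.5 and 19.9 CPM in MEF, whereas Cdk4 differed by 0.25, which turned to -0.13 with library size alone. Every MEF library was below every HPC-7 library for Cdk6 and Ccnd3. The retinoblastoma family genes Rb1, Rbl1 and Rbl2 were higher in HPC-7 (-1.87, -0.90 and -1.82). Among inhibitors, Cdkn2a, which encodes p16 and p19ARF, was at 2.88, 2.70 and 3.06 CPM in HPC-7 and 89.8, 79.5 and 78.4 CPM in MEF, and its neighbour Cdkn2b had no HPC-7 read and 15.3 ± 1.52 CPM in MEF. Cdkn1a and Cdkn1b, p21 and p27, were higher in MEF (1.50 and 0.98), Cdkn2d, p19INK4d, higher in HPC-7 (-1.06), Cdkn2c was not called (39.6 and 37.5 CPM), and Cdkn1c did not pass the filter.

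Of 13 MYC network genes 12 passed, 9 were higher in HPC-7 and 3 in MEF. Mycn, N-MYC, was at 178, 180.5 and 181 CPM in HPC-7 and 3.79, 3.39 and 5.06 CPM in MEF, a log2 difference of -5.48 ± 0.0996. Myc was at 207, 214 and 213 CPM in HPC-7 and 88.4, 91.1 and 90.6 CPM in MEF. Both were higher in every HPC-7 library. Of their partners and antagonists, Max (-0.65), Mga (-1.13), Mlxip (-1.35), Mxd1 (-1.25), Mxd4 (-0.87), Mnt (-0.30) and Mlx (-0.16) were also higher in HPC-7, and Mycl, L-MYC (9 counts in HPC-7, 1.65, 1.91 and 1.61 CPM in MEF, log2 difference 3.07), Mxd3 (1.35) and Mxi1 (0.38) in MEF. Mlx lay close to the threshold, and its call was lost without HPC-7 replicate 2 or 3 or any 1 MEF library (-0.13 to -0.17). Mlxipl did not pass the filter. BCL2 family genes were mixed: of 20 listed, 14 were tested, and of these 8 were higher in MEF and 5 in HPC-7 (4 and 6 with library size alone). Of all tested genes, 45.4% were higher in MEF and 39.3% in HPC-7. Bcl2, the survival factor, was at 77.0, 73.2 and 67.0 CPM in HPC-7 and 25.0, 23.7 and 23.4 CPM in MEF, while Bcl2l1, BCL-XL, was not called (82.7 and 80.8 CPM). The death effectors Bax and Bak1 (0.81 and 0.46) and the BH3-only genes Bad, Bcl2l11 and Bmf (1.11, 0.50 and 1.81) were higher in MEF, as was Bok (0.0667 ± 0.013 to 50.0 ± 6.69 CPM). Toward HPC-7 stood the BH3-only gene Bbc3, PUMA (24.7 ± 0.868 against 8.39 ± 1.70 CPM), Bcl2l12 (-0.68), Bcl2l13 (-0.34) and Bcl2l2 (-0.16). The call of Bcl2l2 was lost without any 1 library (-0.11 to -0.18). Mcl1 and Bid were called toward MEF (0.32 and 0.22) and turned to -0.05 and -0.16 with library size alone, and the call of Bid was lost without HPC-7 replicate 1 or 3 or MEF replicate 3 (0.18 to 0.21). Bik, Pmaip1, Hrk, Bcl2a1a, Bcl2a1b and Bcl2a1d did not pass the filter.

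**Figure D4:**
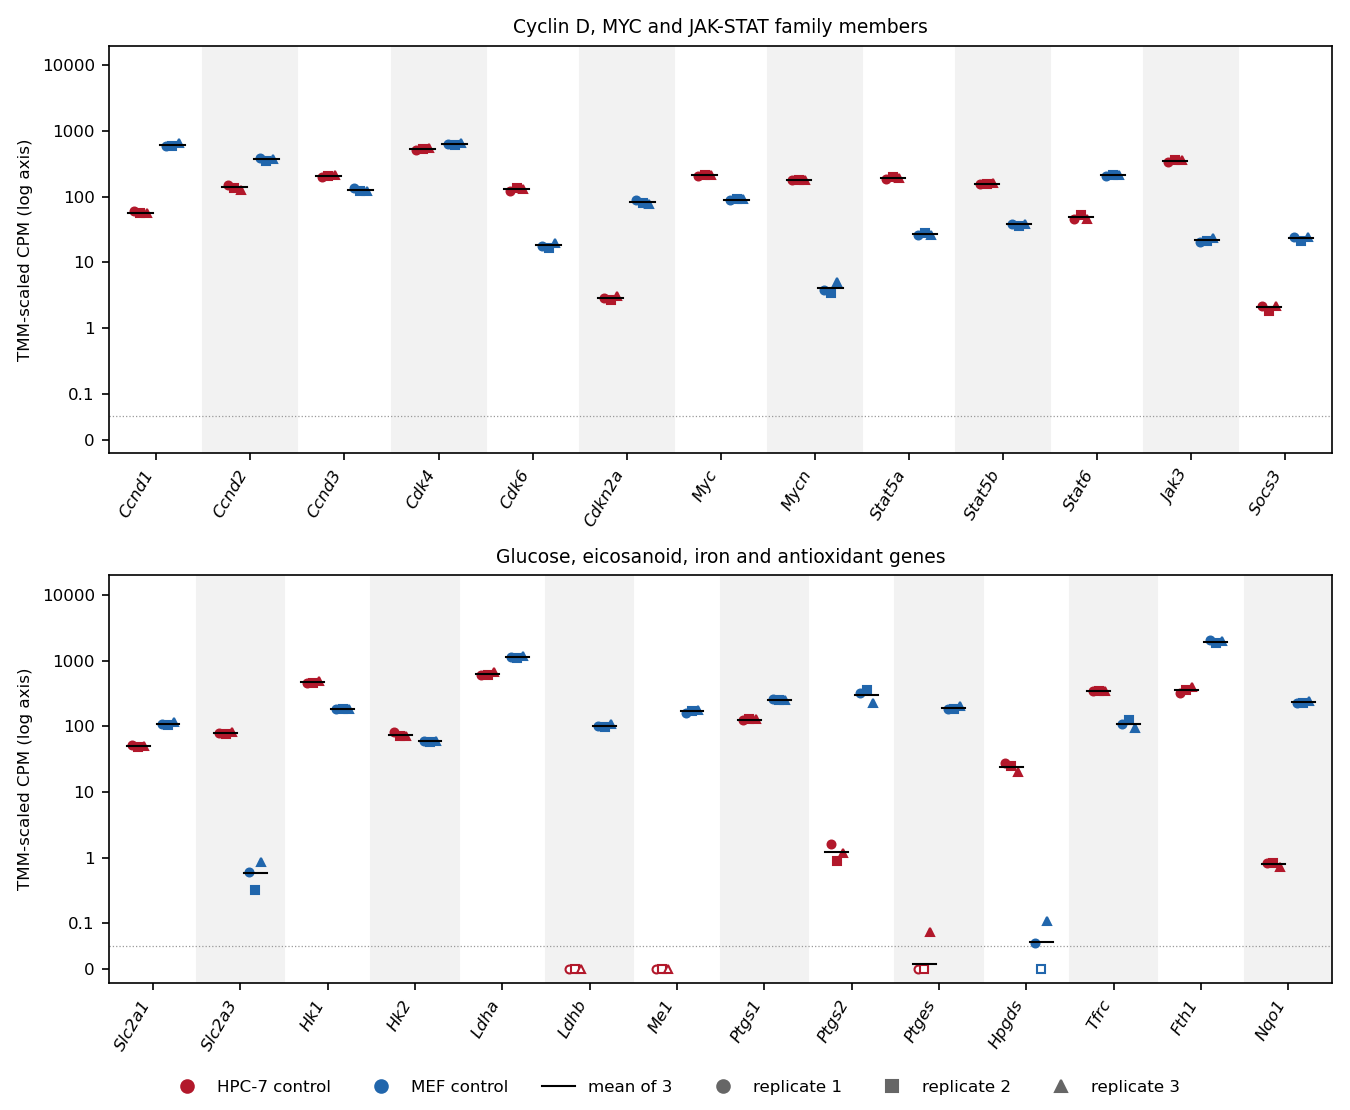
Level of paired family members in each control library (y axis, TMM-scaled CPM on a log axis, with 0 drawn as open symbols under the dotted line). Red is HPC-7, blue is MEF, and bars are means of 3. Ccnd1, Cdkn2a, Stat6, Socs3, Ldhb, Me1, Ptges and Nqo1 are higher in MEF, and Cdk6, Mycn, Stat5a, Stat5b, Jak3, Slc2a3 and Hpgds higher in HPC-7, with no overlap in any of them.

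The phases of the cell cycle ran in opposite directions. Of 42 G1/S and DNA replication genes, all passed, 35 were higher in HPC-7 and 3 in MEF, with a median log2 difference of -0.64. Mcm6, of the replicative helicase, was at 599, 579 and 584 CPM in HPC-7 and 244, 246 and 271 CPM in MEF, and Rfc2, of the clamp loader, went from 245 ± 5.79 to 76.4 ± 0.406 CPM. Of 40 G2/M and mitosis genes, all passed, 27 were higher in MEF and 2 in HPC-7, with a median of 0.51. With library size alone the mitotic split was 19 and 9. Kif23, a kinesin of cytokinesis, went from 58.5 ± 3.44 to 194 ± 15.7 CPM and Anln, anillin, from 83.4 ± 2.66 to 449 ± 28.8 CPM. Pttg1, securin (chromosome 11, 43420244 to 43427463 in GRCm38.p6), had no read in any HPC-7 library and was at 80.6, 68.7 and 75.7 CPM in MEF, at least 1154-fold higher, unlike every other mitotic gene of the list. Mki67, the proliferation antigen, was the main mitotic gene toward HPC-7, at 934, 840.0 and 784 CPM against 591, 521 and 134 CPM in MEF, with replicate 3 the lowest. Its difference of -1.03 ± 0.42 was not called without any 1 HPC-7 library (-0.97 to -1.09) or by DESeq2 (-1.03). Without replicate 3, 34 mitotic genes were higher in MEF and 2 in HPC-7, and Cenpf, at -0.04 and not called with it, was 0.43.

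Of 20 p53 pathway genes 18 passed, 13 were higher in MEF and 3 in HPC-7. Trp53 itself was at 239.8 and 257 CPM and was not called, although it was called at 0.17 without MEF replicate 2 and lay at -0.28 with library size alone. Phlda3 (16.9 ± 0.564 to 114 ± 9.01 CPM) and Tnfrsf10b (4.26 ± 0.438 to 82.0 ± 3.75 CPM), both p53 targets, were higher in MEF, and Mdm4, a p53 inhibitor, in HPC-7 (273 ± 18.2 against 105 ± 9.54 CPM).

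Ribosomal protein genes were balanced under TMM scaling, with 26 of 76 higher in each line and a median log2 difference of -0.03, which was -0.41 with library size alone, where 11 were higher in MEF and 54 in HPC-7. Rpl29 stood outside the rest, at 58.0, 70.1 and 79.4 CPM in HPC-7 and 299.6, 290.4 and 301 CPM in MEF. Many ribosomal protein genes have processed copies in the genome, so single values depend on how multiply fitting reads were handled. Of 76 nuclear oxidative phosphorylation genes 72 passed, 34 were higher in MEF and 12 in HPC-7, with a median of 0.12 that turned to -0.25 with library size alone, where the split was 22 and 37. Ndufs6, an accessory subunit of complex I, was at 34.8, 34.0 and 34.1 CPM in HPC-7 and 2.04, 2.65 and 1.51 CPM in MEF, a log2 difference of -4.05 ± 0.13. No other of the 72 reached 4-fold. Of 27 TCA cycle genes 26 passed, 13 were higher in MEF and 8 in HPC-7, which became 6 and 13 with library size alone, and Pcx, pyruvate carboxylase, was the member past 4-fold (4.85 ± 0.626 to 75.7 ± 2.73 CPM).

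**Figure D5:**
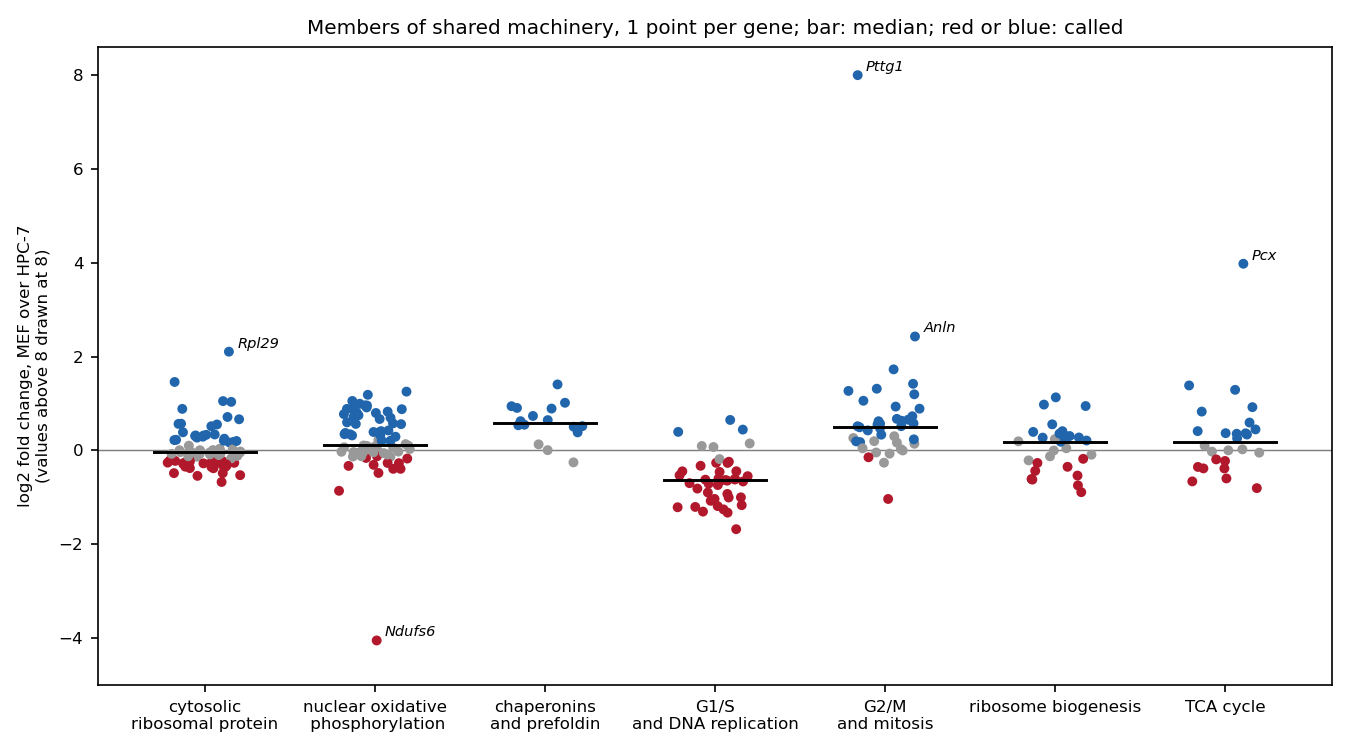
Log2 difference between MEF and HPC-7 (y axis, positive values higher in MEF, values above 8 drawn at 8) for the tested genes of 7 lists of shared machinery. Each point is 1 gene, blue or red where called higher in MEF or HPC-7 and grey where not called, and bars are list medians. G1/S genes lie mostly below 0 and mitotic genes above, and Rpl29, Ndufs6, Pttg1, Anln and Pcx lie apart from their lists.

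Levels of some glycolysis isoforms differed between the lines. Of 38 listed, 29 passed, 18 were higher in MEF and 10 in HPC-7. Slc2a3, the neuronal and blood glucose transporter GLUT3, was at 79.6, 76.4 and 80.5 CPM in HPC-7 and 0.598, 0.318 and 0.861 CPM in MEF, while Slc2a1, GLUT1, went from 49.9 ± 1.04 to 109.9 ± 6.73 CPM. Ldhb, the heart form of lactate dehydrogenase, had no read in HPC-7 and was at 99.9, 97.4 and 109 CPM in MEF, while Ldha went from 625 ± 32.1 to 1134 ± 25.4 CPM. Hk1 and Pdk1, a hexokinase and the kinase that closes pyruvate dehydrogenase, were higher in HPC-7 (-1.35 and -2.21), and Pkm and Eno1, pyruvate kinase and enolase, higher in MEF (2.06 and 2.52). In the NADPH and pentose phosphate list of 16, 15 passed, 7 were higher in MEF and 6 in HPC-7 (7 and 8 with library size alone). Me1, cytosolic malic enzyme, had no read in HPC-7 and was at 162, 169 and 177 CPM in MEF, and Rpia went from 73.1 ± 1.27 CPM in HPC-7 to 22.1 ± 0.812 in MEF.

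Of 35 antioxidant genes of the NRF2 system 32 passed, 23 were higher in MEF and 5 in HPC-7. Among the 32, 7 were at or under 3 counts in 1 line and could pass only through the other. Nqo1, a quinone reductase and NRF2 target, was at 0.837, 0.826 and 0.729 CPM in HPC-7 and 229, 223 and 244 CPM in MEF. Srxn1, sulfiredoxin, went from 0.0425 ± 0.038 to 141 ± 6.36 CPM, and Hmox1, haem oxygenase, from 0.985 ± 0.290 to 89.7 ± 8.57 CPM. Nfe2l2, which encodes NRF2, and Keap1, its inhibitor, were both higher in HPC-7 (-0.57 and -0.39). Of 27 haem synthesis and iron genes 23 passed, 14 were higher in MEF and 6 in HPC-7 (11 and 11 with library size alone). Within this list the ferritin and transferrin receptor genes took opposite sides. Fth1 and Ftl1, the ferritin chains, were higher in MEF (357 ± 37.1 to 1949 ± 102 and 753 ± 68.5 to 2078 ± 126 CPM), and Tfrc and Tfr2, the transferrin receptors, in HPC-7 (345 ± 1.11 against 109 ± 13.9 and 39.6 ± 1.599 against 0, 0.106 and 0.323 CPM).

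Some prostaglandin synthase genes lay in different lines. Of 23 eicosanoid genes 16 passed, 9 were higher in MEF and 6 in HPC-7. Among the 16, 5 were at or under 3 counts in 1 line and could pass only through the other. Ptgs2, the inducible cyclooxygenase COX-2, was at 1.62, 0.901 and 1.17 CPM in HPC-7 and 325, 353 and 230.3 CPM in MEF. Ptges, a synthase of prostaglandin E2, and Ptgis, that of prostacyclin, were at 0.0243 ± 0.042 and 0 CPM in HPC-7. In MEF they were at 189 ± 13.1 and 95.5 ± 5.40 CPM. Hpgds, the haematopoietic prostaglandin D synthase, was at 27.8, 25.2 and 20.2 CPM in HPC-7 and 0.0499, 0 and 0.108 CPM in MEF, and Alox5ap, of leukotriene synthesis, at 68.1 ± 4.28 CPM in HPC-7 and 0.449, 0.424 and 0.538 CPM in MEF. Ptges and Ptgis were thus found almost only in MEF, and Hpgds almost only in HPC-7. Other listed synthases are not described here. Ptgs1 was present in both (127 ± 2.60 and 254 ± 2.28 CPM) and Pla2g4a was not called (202 and 184 CPM).

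Of 23 serine and one-carbon genes 20 passed, 12 were higher in MEF and 6 in HPC-7. Shmt1, the cytosolic serine hydroxymethyltransferase, went from 114 ± 3.30 CPM in HPC-7 to 36.3 ± 3.41 in MEF, and its mitochondrial counterpart Shmt2 from 225 ± 18.9 to 512 ± 16.4 CPM. Mthfd2, mitochondrial, went from 25.1 ± 0.512 to 147 ± 4.64 CPM, and Aldh1l2, mitochondrial, from no read to 292 ± 9.79 CPM. Of 27 amino acid transporter genes 22 passed, 14 were higher in MEF and 8 in HPC-7. Slc7a8, the light chain LAT2, was at 280.1, 260.1 and 264 CPM in HPC-7 and 0.0499, 0 and 1.08 CPM in MEF, and Slc7a5, LAT1, went from 155 ± 3.04 to 267 ± 4.48 CPM. Sterol genes were higher in MEF in 21 of 30 and in HPC-7 in 5, all tested. Abcg1, a sterol exporter, was at 20.7, 19.9 and 19.5 CPM in HPC-7 and had no read in MEF, and Dhcr7 was higher in HPC-7 (-1.32). Of 38 fatty acid genes 31 passed, 18 were higher in MEF and 8 in HPC-7 (12 and 13 with library size alone), led by Scd1, stearoyl-CoA desaturase (13.3 ± 1.08 to 329.7 ± 24.0 CPM), and, toward HPC-7, by the mitochondrial acetyl-CoA synthetase Acss1 (12.1 ± 0.440 CPM, with 1 count in MEF).

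The widest differences over all genes with at least 100 CPM in the higher line were read without regard to the lists. Toward HPC-7, those outside the lists were P2rx1, an ATP-gated channel of platelets (100.2, 99.9 and 104 CPM, 1 count in MEF), Samsn1 (149 CPM, 1 count), Tespa1 (108 CPM, 1 count), Nup210, a nuclear pore gene (321 ± 8.36 against 0.0499, 0 and 0.645 CPM), Clec4e (164 ± 6.08 against 0, 0 and 0.323 CPM) and Rasal3 (214 ± 8.21 against 0, 0 and 0.645 CPM). Toward MEF, 11 of the 12 leading genes were already on the matrix, collagen-folding, fibroblast surface, actin or BMP lists, all with no HPC-7 read, and the other was Igfbp2, a binding protein of insulin-like growth factors, with no read in HPC-7 and 996, 917 and 1012 CPM in MEF.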

How the data were processed

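RNA sequencing read counts of untreated MEF and HPC-7 cells were analysed, 3 libraries each. The values are whole-number counts per gene, deposited by the authors in 1 table per line. The submitters' processing notes name TopHat2 2.0.13 and Bowtie2, Trim Galore and Picard, featureCounts, MACS2 and DESeq2, and the builds GRCm38, mm10, GRCh37 and hg38, without a role for each. The strand setting of the counting was not given in the sources used here. Overlapping and antisense genes, and near-identical copies, may therefore share reads.

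The 43626 genes were joined on their gene ID, 22957 of them had no count in the 6 libraries, and 12997 passed edgeR's filterByExpr. Counts were scaled by TMM (factors 1.135 to 1.147 in HPC-7 and 0.8738 to 0.8827 in MEF) and tested with edgeR's quasi-likelihood test, 1 fit of these 6 libraries, with Benjamini-Hochberg adjustment over all tested genes and a threshold of 0.05. Log2 differences are MEF over HPC-7. SE is the standard error of that difference, and SD is over 3 libraries. Where a line had no count in its 3 libraries together, a fold was computed against 3 counts, per line, and is a lower bound that covers counting error only. Log2 differences and 4-fold calls are fitted values without this floor. On data simulated from these libraries (12736 genes), the test recovered 71.9% of 1.5-fold, 96.9% of 2-fold and 100% of 4-fold changes, with 5 false among 179 calls. The simulation set each gene at its mean over both lines and changed few genes, in both directions. In the real libraries 84.7% of tested genes differed, so these rates do not carry over to this comparison.

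The comparison and its 61 gene lists (1624 genes) were chosen with earlier results of these data known. The list symbols Ahsp and Azu1 have no row in the tables. The genes named are the members of the HSP90, HSP70, heat shock factor, D cyclin, MYC and BCL2 lists. From other lists they come from up to 6 called members per direction with the largest difference, no overlap between lines and at least 10 CPM in the higher line, with up to 3 of the smallest difference. Over all genes they come from the 12 per direction with the largest difference at 100 CPM or more. Paralogs of a named gene were allowed. Another 44 of the 312 genes named fall outside this rule and were chosen after their values were seen. Promoters and positions are from RefSeq tables, and 1283 of 1683 list members and leading genes matched a promoter.

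Alternatives were RLE and upper quartile factors, library size alone, no filter, a filter of 1 CPM in 3 libraries, DESeq2, limma-voom, glmTreat against 2-fold, a joint fit over 12 mouse libraries, a replicate block, counts thinned to the smallest total and leaving out each library. The versions were R 4.3.3, edgeR 4.0.16, limma 3.58.1, DESeq2 1.42.0, Python 3.11.15, pandas 2.3.3 and matplotlib 3.10.9. Some listed genes are not reported here. The K562 samples, the treated libraries outside the joint fit, and the peak files were not used here.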

Additional observations from a re-analysis of the deposited data

How the results depend on the processing

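Against the 5907 and 5105 genes called higher in MEF and in HPC-7, testing for a difference beyond 2-fold (glmTreat) left 3163 and 2089, a threshold that removes smaller differences by construction. The other 16 settings stayed within 1.5 times of both counts, from 4506 and 6807 with library size alone to 6870 and 5896 with no filter on low counts (20669 genes tested), and DESeq2 called 5772 and 4794. Leaving out each library in turn gave 5781 to 6185 and 4957 to 5302. Upper quartile factors and the joint fit over 12 mouse libraries moved the median log2 difference of all tested genes by -0.150 and -0.159, and 47.7% of the calls were then higher in MEF in each.

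Of 301 tested genes named in the text, 214 had the same call and direction in all 17 settings and 268 in all but glmTreat, and 10 changed direction, with a call on either side, in at least 1. With library size alone these were Ripk1 (-0.33), Arpc1b (-0.32), Smad5 (-0.28), Trp53 (-0.28), Bid (-0.16), Cdk4 (-0.13), Mcl1 (-0.05) and Colgalt1 (-0.03). Leaving out each library gave Cacybp -0.14 to 0.17 and Cenpf -0.50 to 0.43, both above 0 without MEF replicate 3. The cause of these changes was not tested beyond the scaling itself and the library left out.

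The deviations of libraries with the same replicate number correlated at 0.103, 0.0302 and 0.106 between the lines, not all over 0.1, so the numbers were not treated as pairing the libraries, and MEF replicate 2 correlated more with HPC-7 replicate 1 (0.0731) than with its own number. A fit with the replicate number as a block called 11005 genes (5886 higher in MEF and 5119 in HPC-7), against 11012 without the block. Depth limits the genes at or under 3 counts summed over a line, 1277 tested genes in HPC-7 and 346 in MEF. Their folds are uncertain, and with no read in a line no more than a lower bound can be given.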

Other observations

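Imprinted and oncofetal growth genes, which are active in embryonic tissue and fall silent in most adult cells, were higher in MEF in 16 of 25 and in HPC-7 in 2, with 18 tested and 16 of the 25 at 3 or fewer HPC-7 counts. Of the tested genes, 10 were at or under 3 counts in 1 line and could pass only through the other. Igf2, an embryonic growth factor, had no read in HPC-7 and was at 179, 156 and 151 CPM in MEF, and the retrotransposon-derived Peg10 had none in HPC-7 and 115, 126 and 122 CPM in MEF. The noncoding transcripts Meg3 and Rian of the Dlk1-Dio3 cluster had no HPC-7 read and were at 87.9 ± 9.57 and 121 ± 6.10 CPM (SD, n = 3) in MEF. Lin28b, which blocks maturation of let-7 microRNAs in fetal progenitors, was at 30.3, 25.9 and 26.5 CPM in HPC-7 and 0.449, 0.106 and 0.215 CPM in MEF. Hmga2, a let-7 target, was present in both lines at 214 ± 8.55 and 1272 ± 89.0 CPM.

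Of 30 interferon response genes 23 passed, 13 were higher in HPC-7 and 7 in MEF. The immunoproteasome subunits Psmb8 and Psmb9 were at 22.3 ± 1.35 and 22.9 ± 1.31 CPM in HPC-7 and 0.227 ± 0.085 and 0.104 ± 0.0041 CPM in MEF, and Tap1, the peptide transporter of antigen presentation, went from 58.8 ± 3.56 to 2.24 ± 0.893 CPM. The antiviral membrane genes took opposite sides: Ifitm1 was at 106, 115 and 111 CPM in HPC-7 and 0.897, 0.953 and 0.968 CPM in MEF, and Ifitm3 at 34.1, 37.5 and 34.5 and 225, 205 and 218 CPM. Of 30 chemokine and cytokine genes 14 were tested, 9 were higher in MEF and 4 in HPC-7, and 8 of those tested were at or under 3 counts in 1 line. Toward MEF stood Cxcl1 (51.8 ± 3.47 CPM, no read in HPC-7) and Ccl7 (50.4 ± 4.75 CPM, 0.511 ± 0.209 in HPC-7), which attract neutrophils and monocytes, and Ccl2 (21.6 ± 2.04 CPM in HPC-7 and 68.4 ± 8.02 in MEF). The 4 toward HPC-7 were the cytokine genes Il6 (13.9 ± 1.92 CPM), Tnf (5.96 ± 0.680 CPM), Il1b (2.46 ± 0.364 CPM) and Ltb (1.12 ± 0.298 CPM), of which Tnf and Il1b had no read in MEF.

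Y-linked genes were read in both lines, with Eif2s3y at 81.6, 75.5 and 74.6 CPM in HPC-7 and 59.1, 66.4 and 36.6 CPM in MEF. Kdm5d, a histone demethylase of the Y chromosome, had no read in HPC-7 and was at 43.6, 41.3 and 35.5 CPM in MEF. The HPC-7 libraries therefore carried transcripts of some Y genes and none of this gene. Ddx3y, a Y-linked helicase, was at 84.2, 95.3 and 25.5 CPM in the MEF libraries, with replicate 3 far below the others, and was not called between the lines.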
